A study of Mus musculus with 8 samples.

Results

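The sirtuins are 7 mouse genes, Sirt1 to Sirt7, chosen by symbol from the 41388 genes of the count tables. All 7 were found by Ensembl gene ID and all 7 had enough counts to be tested, among 16705 genes tested in all. They were measured by sequencing of total RNA, depleted of ribosomal RNA, from brown adipose tissue of 8 C57BL/6J mice held at room temperature on regular chow. The 4 ANKO mice carried floxed alleles of Nampt and a Cre transgene under the adiponectin promoter, an adipocyte promoter, so cells of other types keep Nampt. The 4 WT mice carried the floxed alleles (flox/flox) and are labelled wild type. Their ages were not stated in the labels. Each library is 1 mouse, and the comparison asks which sirtuin transcripts differ in brown fat when adipocytes lack Nampt.

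Sirtuins remove acetyl and longer acyl groups from lysines of proteins and consume NAD+ with each group they remove. Nampt makes the precursor nicotinamide mononucleotide from nicotinamide, so it supplies the NAD+ that sirtuins use. In mammals SIRT1, SIRT6 and SIRT7 are found mainly in the nucleus, SIRT2 mainly in the cytoplasm, and SIRT3, SIRT4 and SIRT5 in mitochondria. SIRT1 is known as a deacetylase of PGC-1α and PPARγ and SIRT3 as the main deacetylase of the mitochondrial matrix. The values here are transcript levels and carry no measure of enzyme activity, acetylation or NAD+.

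Total counts ran from 21771276 to 49697156 in WT and from 5738067 to 26426476 in ANKO, overlapping through ANKO1. The lowest count of any sirtuin in any library was 59 (Sirt4 in ANKO4). Ribosomal RNA made up 2.83% to 3.53% of counts in WT and 0.801% to 1.13% in ANKO. Other transcripts of the mitochondrial genome made up 6.90% to 7.32% in WT and 2.21% to 3.08% in ANKO. Neither share overlapped between the groups, so these shares and genotype cannot be told apart. Levels are given as CPM, the count relative to a library total scaled by TMM, which centres the bulk of genes between libraries. Nampt fell from 508 ± 42.2 to 72.3 ± 4.67 CPM (SD, n = 4 each), or to 14.2% of WT (log2 fold change -2.81, edgeR adjusted p = 1.51e-07). Of all genes tested 58.2% passed an edgeR adjusted p of 0.05, 30.6% upward and 27.6% downward in ANKO, so any call on a single sirtuin has to be read against a change of most of the transcriptome. ANKO libraries also held more RNA of some other cell types and less of others. The summed level of 11 skeletal muscle markers was 32.9 to 2859 CPM in WT and 9810 to 15010 CPM in ANKO, with 8 of 11 called higher. That of 10 macrophage markers was 148 to 213 CPM in WT and 1166 to 1625 CPM in ANKO, with 9 of 10 higher. The 9 lymphocyte markers summed to 4.94 to 6.53 CPM in WT and 29.9 to 48.8 CPM in ANKO, with 8 higher, and the 8 fibroblast and mural markers to 1647 to 1928 and 3790 to 6540 CPM, with 6 higher and 1 lower. The 7 brown adipocyte markers went from 6204 to 13424 CPM in WT to 882 to 3192 CPM in ANKO, with 6 of 7 lower. The 8 general adipocyte markers summed to 13302 to 16367 CPM in WT and 5735 to 8162 CPM in ANKO, with 7 lower and 1 higher. The 6 endothelial markers summed to 911 to 1033 CPM in WT and 645 to 723 CPM in ANKO, with 4 lower and 0 higher. For the 5 erythroid markers the sums were 311 to 694 CPM and 152 to 248 CPM, with 5 lower. No marker of these lists was at 0 in all libraries. Of these shifts only that of muscle was entered as a covariate, the mean log2 CPM of its markers, which was 1.25 to 7.60 in WT and 9.44 to 10.01 in ANKO. Since these ranges do not overlap, muscle level and genotype cannot be told apart, and a call kept or lost in that fit does not separate them. The part of the other shifts in the sirtuin values was not tested. The WT libraries stood in 2 pairs. The chi-square per degree of freedom was 26.5 between WT1 and WT2 and 24.3 between WT3 and WT4, against 67.6 to 107 across the pairs. Among the ANKO libraries it was 6.75 between ANKO1 and ANKO2, 12.2 between ANKO3 and ANKO4, and 14.7 to 48.1 for the other pairings. This value grows with the counts of the libraries compared, which were lowest in ANKO4. It therefore cannot show whether the ANKO libraries stood in pairs. The labels name no batch, and no fit left out ANKO3 and ANKO4 together. Without WT3 and WT4, a setting added after the data were seen, Sirt1, Sirt2, Sirt3 and Sirt7 stayed called at log2 fold changes of -0.66, -0.44, -1.45 and 0.47. In whole tissue, fewer cells of a type and less RNA per cell cannot be told apart.

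The start regions of the 4 sirtuins that were called are shown because 3 of them fell and 1 rose, and because exons of Sirt3, Sirt2 and Sirt7 overlap those of a neighbouring gene at the start. They are RefSeq windows on GRCm38.p6, read 5′ to 3′ on the strand of the gene. For Sirt1 (chr10:63338986-63339285, minus strand), Sirt2 (chr7:28766502-28766801, plus strand) and Sirt3 (chr7:140881820-140882119, minus strand, the inner of 2 RefSeq starts) each holds 250 bases before and 50 bases after the start. For Sirt7 (chr11:120624965-120625074, minus strand) 110 bases are given, 60 before and 50 after the start. They lie beyond the upstream gene Mafg but do not reach its edge. Capitals mark every match to 7 motifs searched on both strands, listed after the sequences.
Sirt1: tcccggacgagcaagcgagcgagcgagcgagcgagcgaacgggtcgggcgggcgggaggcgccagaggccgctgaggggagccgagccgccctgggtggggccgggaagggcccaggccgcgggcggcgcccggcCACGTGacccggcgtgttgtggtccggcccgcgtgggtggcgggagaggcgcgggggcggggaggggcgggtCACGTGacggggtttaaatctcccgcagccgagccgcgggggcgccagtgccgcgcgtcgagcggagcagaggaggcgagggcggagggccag
Sirt2: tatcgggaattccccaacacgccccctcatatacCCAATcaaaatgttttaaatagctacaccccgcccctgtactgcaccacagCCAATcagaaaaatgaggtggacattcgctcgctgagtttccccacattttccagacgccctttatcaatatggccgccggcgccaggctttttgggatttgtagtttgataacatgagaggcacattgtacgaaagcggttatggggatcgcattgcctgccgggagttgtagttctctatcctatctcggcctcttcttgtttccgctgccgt
Sirt3: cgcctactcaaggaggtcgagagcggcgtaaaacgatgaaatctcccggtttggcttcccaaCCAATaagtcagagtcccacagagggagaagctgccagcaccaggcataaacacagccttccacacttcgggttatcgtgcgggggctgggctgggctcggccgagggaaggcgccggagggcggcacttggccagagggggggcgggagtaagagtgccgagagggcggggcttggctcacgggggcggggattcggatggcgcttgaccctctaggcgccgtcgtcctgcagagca
Sirt7: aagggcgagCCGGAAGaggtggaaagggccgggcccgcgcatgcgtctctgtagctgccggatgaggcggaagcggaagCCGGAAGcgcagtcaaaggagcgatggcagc
The motifs were the E-box CACGTG, the CCAAT box, the ETS core CCGGAAG bound by GABP, the half-site AAGGTCA of the estrogen-related receptors, the palindromic NRF1 site, the cAMP response element TGACGTCA and the interferon-stimulated response element. No match overlapped another in the printed sequences. Sirt1 held the E-box at 115 and at 43 bases before its start, a motif found in 7.15% of 32851 RefSeq windows of the same length. Sirt2 held 2 CCAAT boxes and the Sirt3 window 1, a motif of 37.4% of windows. The window of Sirt5, which was not called, held a CCAAT box as well, so 3 of 9 sirtuin windows had the motif. Sirt7 held the ETS core at 51 bases before and 19 bases after its start, and the outer Sirt3 window held it once, against 8.86% of windows. A window of Sirt6, which was not called, held the ETS core too, so 3 of 9 sirtuin windows had it. A match describes the letters only. The Sirt1 window had a GC content of 79.0%, that of Sirt2 50% and that of Sirt3 64.7%, against a median of 52.7% over all windows. The full Sirt7 window of 300 bases was at 51.3%.

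Of the 7 sirtuins 3 fell (Sirt1, Sirt2 and Sirt3), 1 rose (Sirt7) and 3 did not pass the test (Sirt4, Sirt5 and Sirt6) (edgeR adjusted p under 0.05). In these 4 called genes the WT and ANKO libraries did not overlap, as was the case for 55.0% of all genes tested (26.4% lower and 28.7% higher in ANKO). A count of 4 in 7 is near both background shares, so the number of called sirtuins is no result about the family. The median log2 fold change was -0.33 over the 7 sirtuins and -0.01 over all genes tested. The calls did not divide by compartment. One of the 3 nuclear sirtuins fell and one rose, the cytoplasmic one fell, and one of the 3 mitochondrial ones fell.

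**Figure D1:**
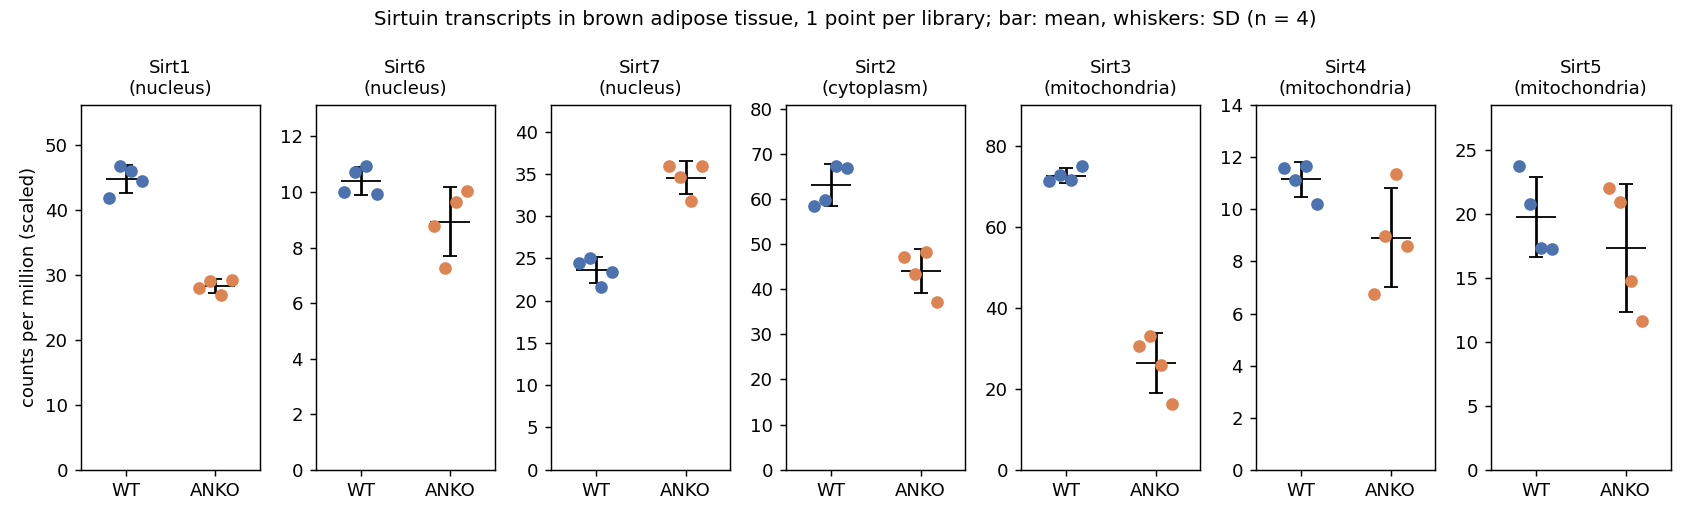
Level of each sirtuin in scaled CPM (y axis, a separate scale from 0 for each gene) in the 4 WT and 4 ANKO libraries. Points are libraries, the horizontal bar is the mean and whiskers are the SD; Sirt3 lies at 71.2 to 75.2 in WT and 16.3 to 33.0 in ANKO, while Sirt5 overlaps between the groups.

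Among the nuclear members, Sirt1 (ENSMUSG00000020063, chromosome 10, 63319005 to 63381704, minus strand, GRCm38) encodes the deacetylase of histones and of many transcription factors. It stood at 41.8, 46.8, 46.0 and 44.4 CPM in WT1 to WT4 and at 28.01, 29.0, 26.9 and 29.1 CPM in ANKO1 to ANKO4. Every ANKO library was below every WT library, and the values within each group were close together. The mean fell from 44.7 ± 2.21 to 28.3 ± 1.07 CPM (SD, n = 4 each), or 1.58-fold (log2 fold change -0.66, standard error 0.08, 95% interval -0.84 to -0.49, edgeR adjusted p = 6.96e-05). Fitted beside the muscle marker level, Sirt1 had a log2 fold change of -0.67 ± 0.14 (SE) and kept its call (edgeR adjusted p = 0.00703).

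Sirt7 (ENSMUSG00000025138, chromosome 11, 120618372 to 120625240, minus strand) encodes the nucleolar sirtuin, known for histone H3 deacetylation and for its link to ribosomal RNA transcription. It was the one member that rose. Its levels were 24.5, 25.0, 21.6 and 23.4 CPM in WT1 to WT4 and 35.9, 34.6, 31.8 and 36.0 CPM in ANKO1 to ANKO4. Each ANKO library was above each WT library. The mean rose from 23.6 ± 1.51 to 34.6 ± 1.96 CPM (SD, n = 4 each), or 1.46-fold (log2 fold change 0.55, standard error 0.09, 95% interval 0.35 to 0.75, edgeR adjusted p = 0.000452). With the muscle marker covariate Sirt7 was at 0.44 ± 0.16 (log2, SE), with a larger standard error than without it, and the call was lost (edgeR adjusted p = 0.0668).

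Sirt6 (ENSMUSG00000034748, chromosome 10, 81621785 to 81627797, minus strand) encodes a deacetylase of histone H3 that acts at glycolytic genes and in DNA repair. It was low in both groups, at 9.95 to 10.95 CPM over the 4 WT libraries and at 8.76, 7.26, 9.65 and 10.1 CPM in ANKO1 to ANKO4. The groups overlapped through ANKO4. The log2 fold change was -0.22 with a 95% interval of -0.52 to 0.07 (edgeR adjusted p = 0.169).

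Sirt2 (ENSMUSG00000015149, chromosome 7, 28766735 to 28788665, plus strand) encodes the cytoplasmic deacetylase of tubulin, FOXO factors and metabolic enzymes. It stood at 58.4, 59.9, 67.5 and 66.8 CPM in WT1 to WT4 and at 47.1, 43.4, 48.2 and 37.3 CPM in ANKO1 to ANKO4. The groups did not overlap, and the mean fell from 63.2 ± 4.65 to 44.0 ± 4.92 CPM (SD, n = 4 each), to 69.7% of the WT level (log2 fold change -0.52, standard error 0.10, 95% interval -0.74 to -0.29, edgeR adjusted p = 0.00158). With the muscle marker covariate Sirt2 was at -0.33 ± 0.17 (log2, SE) and the call was lost (edgeR adjusted p = 0.168). Sirt2 is also known as a gene of myelinating cells; the 7 Schwann cell markers summed to 190 to 217 CPM in WT and 166 to 231 CPM in ANKO, with 4 higher and 1 lower, and their part in Sirt2 was not tested.

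Among the mitochondrial members, Sirt3 (ENSMUSG00000025486, chromosome 7, 140863670 to 140882309, minus strand) fell most of the 7. It stood at 71.2, 72.8, 71.5 and 75.2 CPM in WT1 to WT4 and at 30.6, 33.0, 25.8 and 16.3 CPM in ANKO1 to ANKO4. The highest ANKO library was far below the lowest WT library. The mean fell from 72.7 ± 1.80 to 26.4 ± 7.37 CPM (SD, n = 4 each), to 36.4% of the WT level (log2 fold change -1.45, standard error 0.18, 95% interval -1.84 to -1.06, edgeR adjusted p = 7.78e-05). Of all genes tested 3.02% had a lower log2 fold change. With the muscle marker covariate it was -1.37 ± 0.29 (log2, SE) and the call was kept (edgeR adjusted p = 0.00707). Within ANKO the brown adipocyte marker sum was 3192, 3183, 1975 and 882 CPM in ANKO1 to ANKO4, and Sirt3 was lowest in ANKO4 as well. In WT the sum was 6204, 7707, 13424 and 11991 CPM in WT1 to WT4, while Sirt3 stayed at 71.2 to 75.2 CPM. The part of the brown adipocyte marker level in the Sirt3 value was not tested.

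Sirt4 (ENSMUSG00000029524, chromosome 5, 115478010 to 115484725, minus strand) encodes an ADP-ribosyltransferase and lipoamidase that acts on glutamate dehydrogenase and pyruvate dehydrogenase. It stood at 11.6, 11.1, 11.7 and 10.2 CPM in WT1 to WT4 and at 6.73, 8.99, 11.3 and 8.60 CPM in ANKO1 to ANKO4. The groups overlapped through ANKO3. The log2 fold change was -0.33 with a 95% interval of -0.69 to 0.03 (edgeR adjusted p = 0.101). Without ANKO3 it was -0.48 and was called (edgeR adjusted p = 0.0263). In ANKO4 the 59 counts gave 10.3 CPM before scaling with an exact 95% binomial interval of 7.83 to 13.3 CPM, which covers counting error only.

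Sirt5 (ENSMUSG00000054021, chromosome 13, 43370710 to 43395202, plus strand) encodes the desuccinylase, demalonylase and deglutarylase of mitochondria. It varied more within the groups than between them. Levels were 23.8, 20.8, 17.4 and 17.3 CPM in WT1 to WT4 and 22.1, 20.98, 14.8 and 11.7 CPM in ANKO1 to ANKO4, so ANKO1 and ANKO2 lay inside the WT range. The difference was -0.17 on the log2 scale (standard error 0.20, 95% interval -0.62 to 0.27, edgeR adjusted p = 0.478). Leaving out 1 library moved it from -0.32 without ANKO1 to -0.03 without ANKO4. The lower bound of Sirt5 lies above the upper bound of Sirt3.

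**Figure D2:**
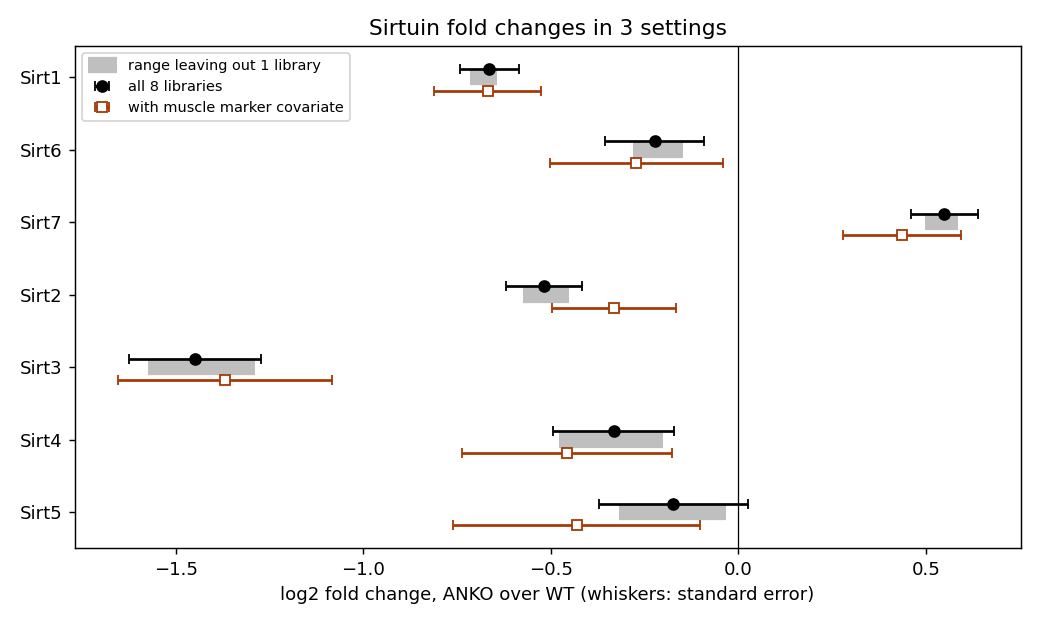
Log2 fold change of ANKO over WT (x axis) for each sirtuin, ordered by compartment. Filled points use all 8 libraries, open squares add the muscle marker level as a covariate, whiskers are standard errors and grey bars span the 8 fits that leave out 1 library; Sirt1 and Sirt3 stay on the same side of 0 with adjusted p under 0.05 in each, and Sirt2 and Sirt7 lose the call with the covariate.

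Per length, Sirt3 led the family in WT by a wide margin. Its level there was 46.3 ± 1.15 CPM per kb of exon, followed by Sirt2 at 17.7 ± 1.30, Sirt5 at 14.5 ± 2.29, Sirt1 at 8.39 ± 0.41, Sirt4 at 4.65 ± 0.28, Sirt7 at 4.59 ± 0.29 and Sirt6 at 3.74 ± 0.18 CPM per kb (SD, n = 4). The ranges of Sirt2 and Sirt5 overlapped, as did those of Sirt4 and Sirt7, and the other neighbours in this order did not. In ANKO the order was Sirt3 at 16.8 ± 4.69, Sirt5 at 12.7 ± 3.65, Sirt2 at 12.3 ± 1.38, Sirt7 at 6.71 ± 0.38, Sirt1 at 5.30 ± 0.20, Sirt4 at 3.72 ± 0.79 and Sirt6 at 3.21 ± 0.44 CPM per kb. The ANKO ranges of Sirt3 and Sirt5, of Sirt5 and Sirt2, and of Sirt4 and Sirt6 overlapped. Sirt7 stood below Sirt1 in each WT library and above it in each ANKO library. These levels rest on the gene lengths of the tables, which join all annotated exons of a gene.

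The family summed to 99.9 ± 0.77 CPM per kb in WT and 60.8 ± 8.50 CPM per kb in ANKO (SD, n = 4 each). Sirt3 alone made up 45.3%, 46.1%, 46.1% and 47.9% of that sum in WT1 to WT4 and 29.1%, 31.3%, 27.3% and 21.2% in ANKO1 to ANKO4. The 3 mitochondrial members held 63.9% to 67.5% of the sum in WT and 45.9% to 59.8% in ANKO. The 3 nuclear members went from 16.2% to 17.4% in WT to 22.03% to 32.8% in ANKO. Their summed level was 16.7 ± 0.57 CPM per kb in WT and 15.2 ± 0.64 in ANKO. Shares sum to 100%, so a fall of Sirt3 raises the share of the other members by itself.

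**Figure D3:**
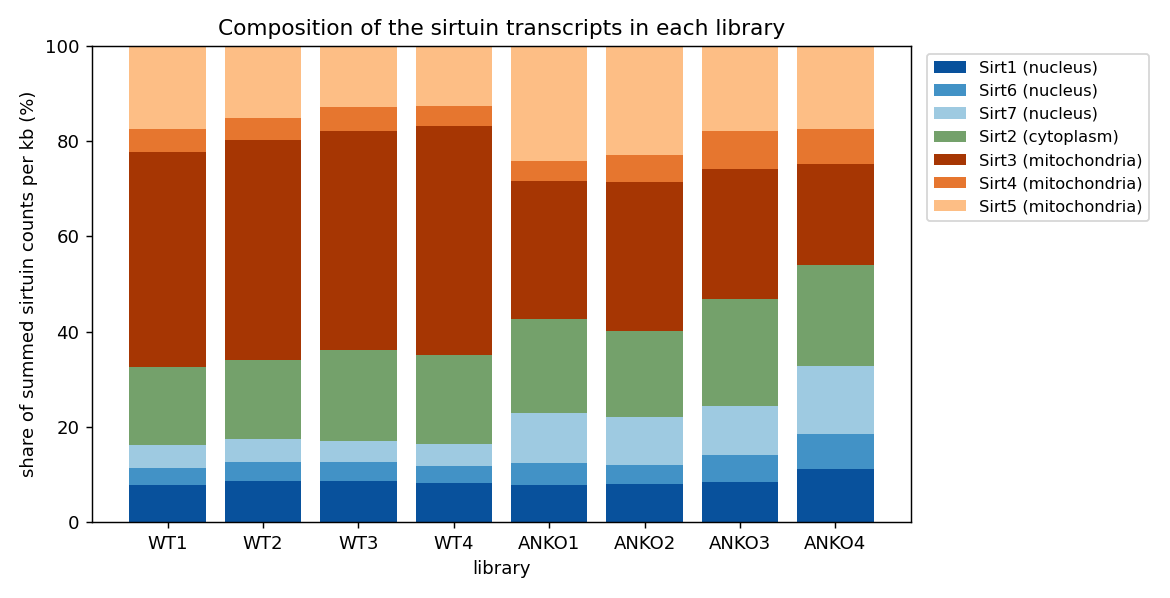
Share of each sirtuin in the summed sirtuin counts per kb (y axis, percent) in each of the 8 libraries, coloured by member with nuclear members in blue, Sirt2 in green and mitochondrial members in orange. Sirt3 takes 45.3% to 47.9% in WT and 21.2% to 31.3% in ANKO.

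Ratios of 2 sirtuins within a library do not depend on library scaling. All 21 pairs were compared with an exact two-sided permutation test, whose smallest p with 4 against 4 libraries is 0.0286. The groups did not overlap in 12 pairs, each at that smallest p, and the adjusted p of these 12 was 0.050, which is at but not under the threshold, so 0 pairs passed it. The ratio of Sirt3 to Sirt7 per length was 9.55, 9.55, 10.9 and 10.5 in WT1 to WT4 and 2.80, 3.13, 2.66 and 1.49 in ANKO1 to ANKO4. The ratio of Sirt1 to Sirt7 was 1.65, 1.81, 2.06 and 1.83 in WT1 to WT4 and 0.754, 0.811, 0.816 and 0.782 in ANKO1 to ANKO4. Both ratios separated the groups completely, with a change of -2.06 and -1.21 on the log2 scale. Within mitochondria the ratio of Sirt3 to Sirt5 was 2.61, 3.05, 3.59 and 3.79 in WT1 to WT4 and 1.21, 1.37, 1.52 and 1.22 in ANKO1 to ANKO4. The 12 pairs were those of Sirt3 with each of the other 6 members, those of Sirt7 with each of the other 6 (Sirt3 with Sirt7 counted in both), and Sirt1 with Sirt6. The remaining 9 pairs overlapped. Among these, Sirt5 with Sirt6 had a difference of 0.00 on the log2 scale and Sirt4 with Sirt6 one of -0.12.

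Genes that lie beside the sirtuins were read next, since their reads could be mixed with those of a sirtuin where exons overlap. Sirt3 shares 152 of its 1570 exon bases with Psmd13, a subunit of the proteasome lid on the opposite strand. Psmd13 starts 99 bases before the inner Sirt3 start, inside the Sirt3 window printed above. In WT Psmd13 averaged 73.4 ± 5.78 CPM, and in ANKO 69.9 ± 9.71 CPM (SD, n = 4 each; log2 fold change -0.07, 95% interval -0.32 to 0.18, edgeR adjusted p = 0.624). At its other end Sirt3 shares 61 exon bases with Ric8a, a chaperone of G protein α subunits, which was at 46.9 ± 2.12 and 44.9 ± 4.30 CPM (log2 fold change -0.06, edgeR adjusted p = 0.571). The count of Sirt3 was 0.903 to 1.08 times that of Psmd13 in WT libraries and 0.290 to 0.426 times in ANKO libraries. This ratio, and that of Sirt3 to Ric8a, did not overlap between the groups (exact permutation p = 0.0286, the smallest possible, adjusted over 4 pairs 0.0381). The same p adjusted over the 21 pairs of sirtuins was 0.050. Since Psmd13 and Ric8a changed little, both ratios largely repeat the fold change of Sirt3. Ratios to neighbours were chosen after values were seen.

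Sirt2 shares 42 exon bases with Nfkbib, an inhibitor of NF-κB on the opposite strand, whose log2 fold change was -0.20 (edgeR adjusted p = 0.244). The ratio of Sirt2 to Nfkbib was 5.15 to 6.70 in WT and 4.27 to 4.88 in ANKO, with no overlap (exact permutation p = 0.0286, adjusted 0.0381). Rinl, 303 bases past the end of Sirt2 on the same strand, rose 3.27-fold from 3.57 to 11.7 CPM (edgeR adjusted p = 5.31e-06) while Sirt2 fell. Sirt7 shares 124 exon bases with Mafg, a small MAF transcription factor upstream on the same strand. In WT Mafg averaged 78.2 ± 15.5 CPM, and in ANKO 77.9 ± 12.5 CPM (SD, n = 4 each; log2 fold change -0.01, edgeR adjusted p = 0.970). The ratio of Sirt7 to Mafg was 0.232 to 0.388 in WT and 0.373 to 0.530 in ANKO, and these ranges overlapped (exact permutation p = 0.0857, adjusted 0.0857). Pcyt2, a phosphatidylethanolamine synthesis gene 435 bases past the end of Sirt7, had a log2 fold change of -0.07 (edgeR adjusted p = 0.814). Gm16145, an antisense gene that shares 65 exon bases with Sirt1, had at most 2 counts in a library, and Mir6936, which shares 54 with Sirt7, had 0 in all; neither could be tested. Herc4 and Dnajc12 beside Sirt1 did not pass the test, at -0.15 and -0.22, nor did Ankrd24 beside Sirt6, at -0.02, while BC025920 beside Sirt6 fell from 1.62 to 0.691 CPM (edgeR adjusted p = 0.00822). The strand setting of the counting is not known from the labels, so reads in the shared bases cannot be assigned.

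**Figure D4:**
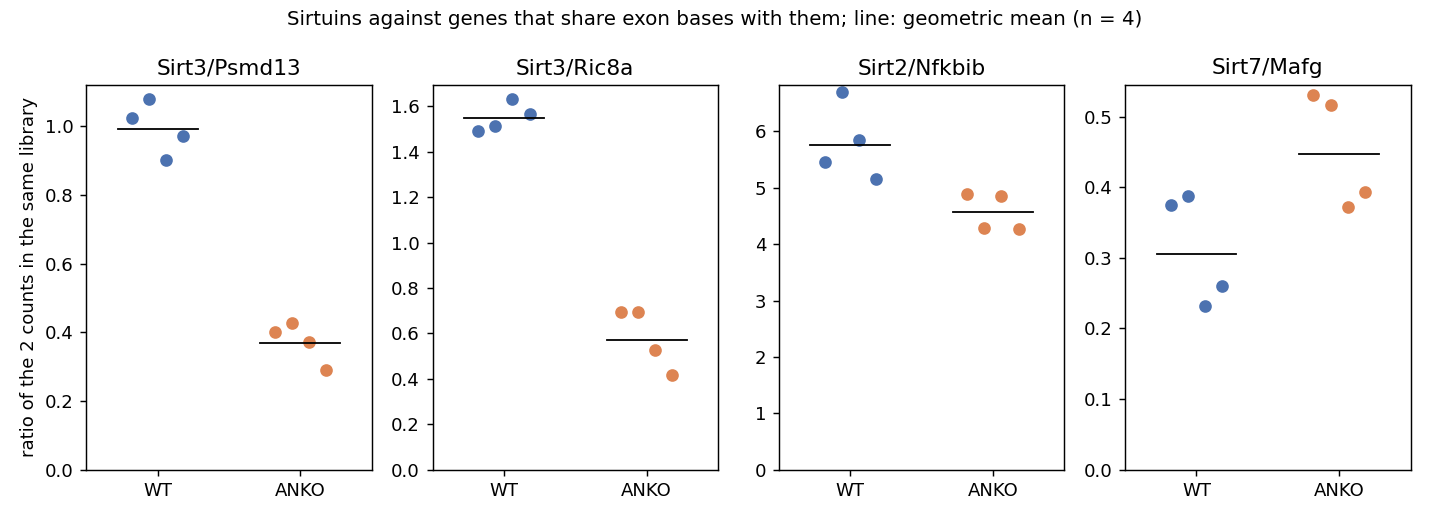
Ratio of the count of a sirtuin to that of a gene sharing exon bases with it (y axis, from 0) in the 4 WT and 4 ANKO libraries, with the geometric mean as a line. Sirt3 to Psmd13 falls from 0.903 to 1.08 in WT to 0.290 to 0.426 in ANKO, and the Sirt7 to Mafg ranges overlap.

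The transcripts most like each called sirtuin over the 8 libraries were found by the root mean square difference of log2 CPM, each gene centred on its own mean, among 9270 protein-coding genes of at least 10 CPM. For Sirt3 these were Immp2l, a peptidase of the inner mitochondrial membrane, Ndufv1, a core subunit of complex I, and Hibch, an enzyme of valine breakdown, at 0.04, 0.06 and 0.06. They were at 36.4%, 36.8% and 36.9% of their WT level in ANKO. For Sirt1 they were Phlpp1, a phosphatase of AKT, Erp44, a chaperone of the endoplasmic reticulum, and Zfp24, a zinc-finger factor. For Sirt2 they were U2af1l4, a splicing factor, Mars, the methionyl-tRNA synthetase, and Reep5, which shapes the endoplasmic reticulum. For Sirt7 they were Nup107, a nucleoporin, Rp2, a GTPase-activating protein of cilia, and Pik3cb, a catalytic subunit of PI3-kinase. With 2 groups that differ in most genes this likeness mostly says that the fold change is alike.

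The zinc-dependent histone deacetylases, which do not use NAD+, changed in both directions. Of 11 members 4 were higher and 4 lower, or 72.7% called against 58.2% of all genes, with a median log2 fold change of -0.21. The 3 lower ones with the smallest p were Hdac6, the cytoplasmic tubulin deacetylase (44.9 to 25.7 CPM), Hdac2 (84.1 to 53.8 CPM) and Hdac3 (65.4 to 47.3 CPM). Hdac11 rose from 2.60 to 14.9 CPM, Hdac9 from 1.70 to 7.18 CPM and Hdac7 from 23.0 to 32.4 CPM. The summed skeletal muscle markers were higher in the same libraries, and their part in these 3 genes was not tested.

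Of 15 lysine acetyltransferases and acetyl-CoA supply genes 2 were higher and 7 lower, with a median log2 fold change of -0.22. Called in either direction were 9 of these 15, near the share of 58.2% over all genes tested (30.6% higher and 27.6% lower). The number called is therefore no result about the list. Acss1, which makes acetyl-CoA in mitochondria and is a known SIRT3 substrate, fell from 487 ± 26.6 to 85.4 ± 14.9 CPM, or 5.69-fold (SD, n = 4 each; edgeR adjusted p = 7.30e-07). The carnitine acetyltransferase Crat fell from 1072 to 410 CPM and the nuclear acetyltransferase Ep300 from 184 to 137 CPM. The 2 higher ones were Acly, the cytosolic ATP citrate lyase, from 1625 ± 991 to 5341 ± 2697 CPM, and Hat1, from 10.3 to 13.6 CPM.

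Of 8 genes of NAD+ supply, Nampt among them, 5 were lower and 1 higher, or 75.0% called against 58.2% of all genes tested. The nuclear Nmnat1 and the mitochondrial Nmnat3, which make NAD+ from its mononucleotide, had log2 fold changes of -0.20 and -0.13 and did not pass the test. Nmnat2, their relative of the cytosol and Golgi, rose from 0.487 to 1.14 CPM, a low level in both groups. Slc25a51, which carries NAD+ into mitochondria, fell 2.88-fold from 761 to 264 CPM, and the mitochondrial NAD kinase Nadk2 fell 2.14-fold from 85.7 to 39.9 CPM.

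Of 10 known regulators of SIRT1 3 were higher and 4 lower, beside 58.2% called in either direction over all genes tested. Foxo3, a forkhead factor that can activate the Sirt1 promoter, rose from 51.0 to 95.8 CPM, E2f1 from 0.943 to 4.91 CPM and Usp22, a deubiquitinase, from 56.4 to 94.99 CPM. All 5 markers of proliferating cells were called higher as well, and their part in E2f1 was not tested. Elavl1, which binds the Sirt1 mRNA, fell from 97.1 to 64.0 CPM and the corepressor Ctbp1 from 138 to 101 CPM. The SIRT1 inhibitor Ccar2 and the repressor Hic1 had log2 fold changes of 0.05 and -0.00 and did not pass the test.

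**Figure D5:**
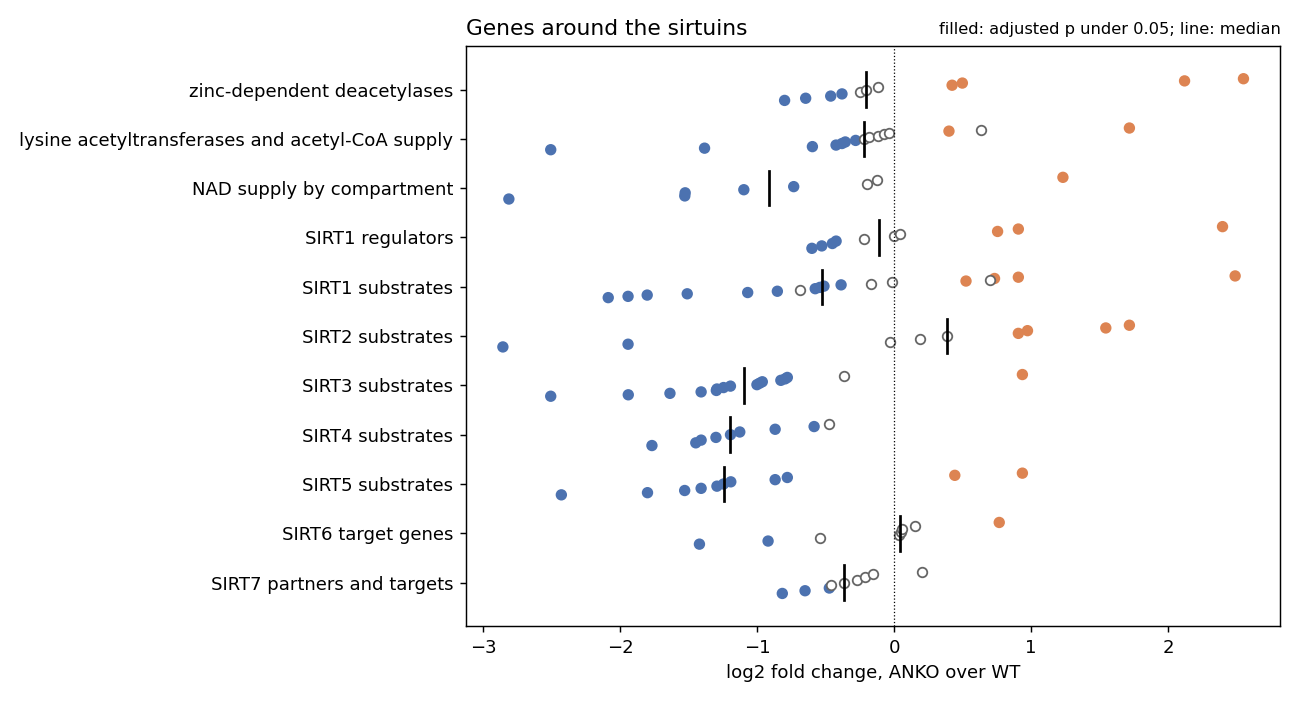
Log2 fold change of ANKO over WT (x axis) of the tested members of each list of genes around the sirtuins; filled points passed an edgeR adjusted p of 0.05, open points did not, and the line is the median of the list. The SIRT3, SIRT4 and SIRT5 substrate lists have medians of -1.10, -1.20 and -1.25.

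Of 16 SIRT3 substrates 14 were lower and 1 higher, or 93.8% called, with a median log2 fold change of -1.10. Of all genes tested 58.2% were called in either direction and 27.6% were called lower. Acadl, the long-chain acyl-CoA dehydrogenase, fell 3.84-fold from 1858 to 483 CPM and Glud1, the glutamate dehydrogenase also targeted by SIRT4 and SIRT5, fell 2.66-fold from 363 to 137 CPM. Of 9 SIRT4 substrates 8 were lower and 0 higher (median -1.20), with the methylcrotonyl-CoA carboxylase subunits Mccc1 and Mccc2 down 2.73-fold and 3.41-fold. Of 11 tested SIRT5 substrates 9 were lower and 2 higher (median -1.25), with the enoyl-CoA hydratase Echs1 down 3.49-fold and Idh2 down from 562 to 229 CPM. The counts of Cps1, which is also listed, were too low for the test. Gapdh, among the higher ones, was at 33.6 CPM in WT and at 45.5 CPM in ANKO, and its reads can be shared with near-identical pseudogene copies. The 3 lists share Glud1 and other members, and the brown adipocyte markers fell with them.

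Of 18 SIRT1 substrates 10 were lower and 4 higher (median -0.53). The DNA end-binding protein Xrcc6 fell from 182 to 51.9 CPM, Pparg from 430 to 205 CPM and Foxo4 from 78.1 to 52.2 CPM, while Stat3 rose from 116 to 167 CPM, Foxo3 as given above and Prox1 from 0.830 to 4.65 CPM. Of 9 SIRT2 substrates 4 were higher and 2 lower (median 0.38). Pck1, the phosphoenolpyruvate carboxykinase, fell 7.25-fold from 7382 to 1018 CPM and Foxo1 fell 3.85-fold from 176 to 45.9 CPM. Tuba1a, an α-tubulin, rose from 18.7 to 36.8 CPM and the mitotic kinase Bub1b from 3.37 to 9.74 CPM, beside proliferation markers that summed to 6.35 to 18.4 CPM in WT and 53.2 to 91.65 CPM in ANKO. Of 8 genes of glucose metabolism that SIRT6 is known to repress 2 were lower and 1 higher (median 0.04). Pdk4 fell from 2592 to 967 CPM and Hk2 from 999.8 to 528 CPM, while Aldoa rose from 2530 to 4304 CPM beside the muscle markers. Of 9 partners and targets of SIRT7 3 were lower and 0 higher (median -0.37). These were Ubtf, the RNA polymerase I factor (199 to 113 CPM), the RNA polymerase I subunit Polr1a (80.8 to 51.5 CPM) and the nucleolar helicase Ddx21 (86.5 to 62.4 CPM). The called shares of the SIRT1, SIRT2, SIRT6 and SIRT7 lists were 77.8%, 66.7%, 37.5% and 33.3%. Of all genes tested 30.6% were called higher and 27.6% lower, so 3 lower of 9 is no result about the SIRT7 list. No set test was run on these lists, whose counts are a description beside the 58.2% of all genes called.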

How the data were processed

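Total RNA of 8 flash-frozen brown fat samples was depleted of ribosomal RNA, per the labels' protocols. The submitters' processing notes name STAR 2.0.4b, featureCounts 1.45 and GRCm38. Strand setting and annotation release: not given in the sources used here. The authors deposited for each of 41388 genes counts, CPM and RPKM. The deposited CPM is the count scaled to the total of its table and the deposited RPKM is that CPM per kb of gene length, checked on the files. Only the counts were used.

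Symbols came from GENCODE M21 (40340 genes matched). The 355 rRNA rows, 0.801% to 3.53% of counts, were left out. The 4 WT and 4 ANKO mice were compared with the edgeR 4.0.16 quasi-likelihood test in R 4.3.3 (filterByExpr, TMM, robust, no covariate), with p-values adjusted by Benjamini-Hochberg over 16705 genes. Intervals of log2 fold changes use its total degrees of freedom, residual and prior. Ratios within libraries used exact permutation tests. The test was first run on simulated data with known changes. No 2 libraries agreed within sampling noise. Total counts set the precision, which is lowest in ANKO4, where 3 counts are 0.523 CPM, counting error only.

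The members and lists were chosen with earlier results of these data known. Named genes are the sirtuins, Nampt, up to 3 called members per list and direction with the smallest p, genes within 2 kb of a sirtuin, and the 3 most alike genes per called sirtuin. List members named without passing the test (Nmnat1, Nmnat3, Ccar2, Hic1) or untested (Cps1), and the ratios to neighbours, were chosen after values were seen. Some list members that the rule names are not reported here. RefSeq protein sequences were not used here, so no protein description was made. The alternatives were other scalings and filters, DESeq2 1.42.0, limma-voom (limma 3.58.1), the replicate block, each library left out, protein-coding genes alone, rRNA kept, the muscle covariate and thinning; leaving out WT3 and WT4 was added later.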

Additional observations from a re-analysis of the deposited data

Results flagged for a closer look

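The level of Nampt in WT had 1 library that stood apart: WT3 was at 571 CPM and the other 3 WT libraries at 484, 484 and 495 CPM, so the gap was 0.875 of the range of the group. No sirtuin had such a gap in either group. Chance gives such a gap in about 1 group of 20, and 16 groups were examined.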

How the results depend on the processing

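Over 21 alternatives, 144 of 147 sirtuin fold changes kept their direction and their side of the threshold, and 0 reversed. The muscle marker covariate called 4317 of all genes against 9726 without it, and ended the calls of Sirt2 (log2 fold change -0.33) and Sirt7 (0.44), which left 0 sirtuins called higher; the cause was not tested. Without 1 library at a time Sirt4 ran from -0.48 to -0.20 and was called only without ANKO3. Over 9430 genes the replicate number did not pair the libraries (correlations of same-numbered libraries from -0.063 to 0.149). With the replicate block Sirt1, Sirt2, Sirt3 and Sirt7 stayed called at -0.66, -0.52, -1.49 and 0.55. For the ratios the block gave 0 under the threshold, which 4 pairs cannot reach (lowest adjusted p 0.188). Sirt1 ranged from -0.72 to -0.48 and Sirt3 from -1.57 to -1.29 over all alternatives. Without scaling factors the median of all genes moved from -0.01 to 0.17, Sirt5 was at -0.02 and Sirt7 at 0.73. Ratios whose difference was near 0 changed sign when 1 library was left out: Sirt5 to Sirt6 ran from -0.20 to 0.24, Sirt4 to Sirt5 from -0.31 to 0.14 and Sirt4 to Sirt6 from -0.22 to 0.0061. Thinned to the lowest library, Sirt6 was at -0.30 with a standard error of 0.21, against 0.13 at full depth.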
